A study of Mus musculus with 9 samples.

Results

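The 4 mammalian Hox clusters were examined in a HiChIP study of mouse thymocytes. In HiChIP, DNA ends that lie close in the nucleus are ligated and then pulled down with an antibody, so a read pair records a contact at chromatin that carries the antibody's target. The members were the 39 genes of the GRCm38.p6 gene table whose symbol is Hoxa, Hoxb, Hoxc or Hoxd followed by a number, of 49554 genes on chromosomes 1 to 19 and X. HoxA on chromosome 6 holds 11 of them, HoxB on chromosome 11 holds 10, and HoxC on chromosome 15 and HoxD on chromosome 2 hold 9 each. The level of a gene or cluster is its number of read pairs per 1000000 used read pairs of the library (CPM), in listed interactions with an anchor within 5 kb of the gene body and anchor midpoints at least 10 kb apart. No measured value chose the members.

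Live CD4+ CD8+ thymocytes, immature T cells that carry both coreceptors, were sorted from mouse thymus. The labels give no age or sex. The H3K27ac libraries (an antibody to acetylated histone H3 lysine 27, a mark of active promoters and enhancers) were 2 from NOD/ShiLtJ mice (NOD) and 2 from C57BL/6J mice (BL6). The Smc1 libraries (an antibody to a cohesin subunit) were 1 from F1 mice (NOD/ShiLtJ X C57BL/6), deposited once on each parental genome, 2 from NOD mice and 2 from BL6 mice. The labels name no engineered allele and no drug in any group, and do not say how many animals went into a library. The 4 H3K27ac samples carry Smc1 in their titles and protocol text, but H3K27ac in the antibody field and in their table names. Grouping went by the antibody field, and every H3K27ac value rests on it. The 2 Smc1 libraries of a strain are labelled technical replicates of 1 biological replicate, so p-values that use them measure spread that may be technical. Tables of NOD libraries were made on the NOD genome and shifted to the BL6 reference, so strain and mapping genome cannot be told apart.

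Used read pairs numbered 381010 and 497751 in the NOD and 440901 and 1203808 in the BL6 H3K27ac libraries 1 and 2. The Smc1 libraries held 765188 (F1 on the BL6 genome), 791859 (F1 on the NOD genome), 1663366 and 1484554 (NOD), and 1899789 and 2620662 (BL6). A table lists an interaction only from 2 read pairs and at a q-value up to 0.05, so a pair that is not listed was under that limit, not measured as 0. Between 59.6% and 73.5% of the used interactions of a library rested on exactly 2 read pairs. In such bulk data fewer cells with a contact and fewer contacts per cell cannot be told apart. As a check of the cell type, 10 of 12 double-positive thymocyte markers lay above the all-gene median of H3K27ac read pairs per kb of window, among them Cd8a, Cd8b1, Bcl11b and Cd4. The other 2 were Rag1 (0.674) and Themis (0.103), under the median of 0.885 CPM per kb. Above the same median also lay 7 of 9 progenitor and myeloid, 4 of 5 B cell and 5 of 6 thymic epithelial markers. These are contact levels and not expression, so they do not separate cell types.

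Hox genes encode homeodomain transcription factors that set position along the head-to-tail axis of the embryo, and each cluster is ordered so that low-numbered paralogues act early and towards the head. Polycomb complexes keep unused clusters silent with H3K27 methylation, while trithorax proteins such as Kmt2a keep used genes active. In blood formation Hoxa9, Hoxa10 and Hoxb4 are known from stem and progenitor cells, and HoxA genes are generally turned down as thymocytes mature.

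Of the Hox genes, 22 had a promoter entry in the RefSeq table (24 promoters, GRCm38.p6), each running from 250 bases before to 50 bases after the start of a transcript. Anchors of listed interactions covered these promoters very unevenly. The Hoxa6 promoter (chr6:52208623-52208922, minus strand) touched an anchor region with listed read pairs in all 4 H3K27ac and all 4 Smc1 libraries, the only promoter of the 24 to do so. The Hoxa5 promoter (chr6:52204538-52204837, minus strand) and the Hoxd3 promoter (chr2:74711743-74712042, plus strand) were anchored in all 4 Smc1 libraries, but in 0 and 1 H3K27ac libraries. These 3 are shown because all were anchored with Smc1 and they span 0 to 4 libraries with H3K27ac, with CpG dinucleotides in capitals.
Hoxa6: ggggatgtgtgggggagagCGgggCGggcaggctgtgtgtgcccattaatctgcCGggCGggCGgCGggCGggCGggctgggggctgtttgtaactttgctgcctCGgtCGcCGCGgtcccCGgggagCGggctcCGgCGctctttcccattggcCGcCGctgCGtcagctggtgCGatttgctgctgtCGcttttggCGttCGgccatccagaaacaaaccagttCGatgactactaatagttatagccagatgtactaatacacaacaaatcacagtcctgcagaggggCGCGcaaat
Hoxa5: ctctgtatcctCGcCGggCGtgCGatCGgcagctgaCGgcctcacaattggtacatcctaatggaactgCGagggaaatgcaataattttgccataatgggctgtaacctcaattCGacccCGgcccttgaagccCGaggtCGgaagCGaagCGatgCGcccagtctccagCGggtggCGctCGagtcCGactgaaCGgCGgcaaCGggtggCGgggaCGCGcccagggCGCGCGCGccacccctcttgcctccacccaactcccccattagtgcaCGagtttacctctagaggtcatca
Hoxd3: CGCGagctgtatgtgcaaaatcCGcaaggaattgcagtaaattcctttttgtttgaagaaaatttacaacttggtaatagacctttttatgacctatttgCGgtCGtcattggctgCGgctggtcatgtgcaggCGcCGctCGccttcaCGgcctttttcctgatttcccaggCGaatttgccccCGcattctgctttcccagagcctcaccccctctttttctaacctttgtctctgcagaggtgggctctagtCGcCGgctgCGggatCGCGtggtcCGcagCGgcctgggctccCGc
They hold 26, 29 and 20 CpG dinucleotides, beside a median of 14.5 over the 24 Hox promoters and of 7 over all 32851 promoters of the table. The 7 promoters anchored in all 4 Smc1 libraries held 4 to 29 CpG dinucleotides (median 20), and the 9 promoters anchored in none of the 8 libraries held 4 to 45 (median 14), so the ranges overlapped. The 9 included Hoxa13 with 45 and Hoxd1 with 29. Anchor regions covered all 300 bases of the Hoxa5 and Hoxd3 promoters, and 87 bases of the Hoxa6 promoter, the 87 farthest upstream.

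The comparison of H3K27ac with Smc1 asks whether the clusters take part in contacts near active chromatin to the extent that they do in cohesin-held contacts. HoxD had the lowest mean with H3K27ac and fell relative to Smc1 in the fit over 8 libraries, a call that several alternatives below ended. HoxD was the lowest cluster in 3 of 4 H3K27ac libraries. HoxA was the highest cluster in 3 of 4 libraries with each antibody, and HoxB in the remaining one. That order rests on contacts of 2 read pairs. With at least 3 read pairs HoxC led with H3K27ac (93.8 CPM, beside 55.1 for HoxA) and HoxB with Smc1 (211 CPM, beside 206 for HoxA). HoxD had 21.0 and 14.1 CPM in the NOD and 40.8 and 111 CPM in the BL6 H3K27ac libraries, against 217 and 193 CPM in the NOD and 206 and 169 CPM in the BL6 Smc1 libraries. All 4 H3K27ac libraries lay below all 4 Smc1 libraries, with BL6 library 2, the deepest of the H3K27ac libraries, nearest to them. The mean was 46.8 ± 44.5 CPM with H3K27ac and 196 ± 20.8 CPM with Smc1 (SD, n = 4 libraries each). Here and below the 4 Smc1 libraries are 2 technical replicates of 1 biological replicate in each strain, so their SD holds technical spread. For the HoxD cluster the fitted log2 ratio was -2.53 ± 0.54 (SE; adjusted p = 0.0490 by edgeR's quasi-likelihood test over 8 libraries with strain as a term). Of all 35836 genes and clusters tested, 1.41% passed in either direction and 1.3% as lower. Leaving out any single library other than H3K27ac BL6 library 2 ended the call, with log2 ratios of the HoxD cluster between -2.91 and -2.11 and adjusted p by edgeR between 0.0664 and 0.156. Without H3K27ac BL6 library 2 the value was -3.25 (adjusted p = 0.0115 by edgeR), and Hoxd3 was called as well, where 0.95% of all features passed as lower. Hoxd4 and Hoxb5 also passed there, but neither had a listed read pair in the 3 remaining H3K27ac libraries, and they entered the fit through Smc1 alone. Within BL6 libraries alone the HoxD cluster was at -1.52 (adjusted p = 0.635) and within NOD libraries alone at -3.86 (adjusted p = 0.328, both by edgeR). Library totals alone, gene ends, at least 3 read pairs, q up to 0.01 and the replicate block also ended the call, with adjusted p by edgeR between 0.0528 and 0.159. With the 2 Smc1 technical replicates of each strain summed, an alternative chosen after the data were seen, the HoxD cluster was at -2.78 ± 0.68 (SE; adjusted p = 0.407 by edgeR). That fit of 4 against 2 libraries called 0% of 32921 features (6.16% at an unadjusted p under 0.05) and none of 38 Hox genes (7 at an unadjusted p under 0.05).

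HoxA had 244 and 153 CPM in the NOD and 122 and 160 CPM in the BL6 H3K27ac libraries, against 283 and 216 CPM in the NOD and 201 and 240.0 CPM in the BL6 Smc1 libraries. These ranges overlapped, through H3K27ac NOD library 1. HoxB had 60.4 and 74.3 CPM in the NOD and 20.4 and 170 CPM in the BL6 H3K27ac libraries, against 230 and 127 CPM in the NOD and 207 and 182 CPM in the BL6 Smc1 libraries. HoxC had 73.5 and 56.3 CPM in the NOD and 70.3 and 150 CPM in the BL6 H3K27ac libraries, against 183 and 162 CPM in the NOD and 127 and 116 CPM in the BL6 Smc1 libraries. For HoxB and HoxC the ranges overlapped only through H3K27ac BL6 library 2. The fitted log2 ratios were -0.75 ± 0.26 for the HoxA cluster, -1.44 ± 0.51 for the HoxB cluster and -1.01 ± 0.38 for the HoxC cluster (SE), none past the threshold (adjusted p by edgeR = 0.193, 0.203 and 0.235). An exact two-sided permutation test on the CPM of 4 H3K27ac against 4 Smc1 libraries gave p = 0.0286 for HoxD, the smallest that its 70 splits allow, and 0.0571, 0.0857 and 0.114 for HoxB, HoxC and HoxA. Adjusted over the 4 clusters every one of these was 0.114. With at least 3 read pairs the adjusted p was 0.0381 for HoxA, HoxB and HoxD and 0.114 for HoxC, and the difference at HoxA, H3K27ac minus Smc1, was -151 CPM against -65.2 CPM from 2 read pairs. With the Smc1 technical replicates summed, the 15 splits of 4 against 2 allow no p under 0.0667, and HoxD had that p (adjusted 0.267 by the same exact permutation test).

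**Figure D1:**
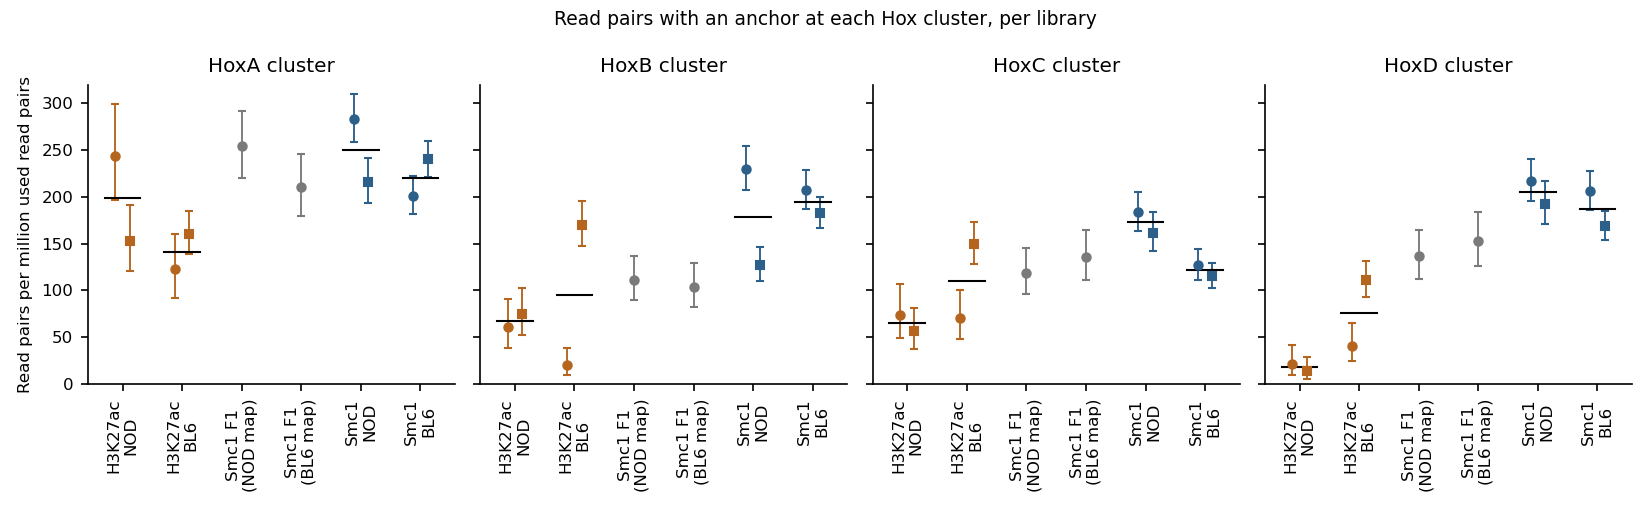
Read pairs in CPM with an anchor at each Hox cluster, for every library. Points are libraries (circle 1, square 2) with exact Poisson 95% intervals of the count, black lines are group means, and the 4 H3K27ac points of HoxD lie between 14.1 and 111, below the Smc1 points at 169 to 217.

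Every H3K27ac library (381010 to 1203808 used read pairs) was shallower than every parental Smc1 library (1484554 to 2620662). Antibody and depth therefore cannot be told apart in any comparison of H3K27ac with Smc1 given here. From the shallowest to the deepest, the H3K27ac libraries had 244, 122, 153 and 160 CPM at HoxA and 60.4, 20.4, 74.3 and 170 at HoxB. They had 73.5, 70.3, 56.3 and 150 CPM at HoxC and 21.0, 40.8, 14.1 and 111 at HoxD. BL6 library 2 was both the deepest of its antibody and the highest at HoxB, HoxC and HoxD. The part of that library in the result was not tested beyond leaving it out. Each interval given for a count covers counting error only. Among all genes, H3K27ac BL6 library 2 was the highest of the 4 H3K27ac libraries for 24.5%, and among the Hox genes for 27 of 39.

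At single Hox genes the contrast between antibodies ran the same way with none past the threshold. The mean CPM was lower with H3K27ac than with Smc1 for 33 of 39 Hox genes, beside 50.5% of all genes with a listed interaction. By cluster these were 6 of 11 HoxA, 10 of 10 HoxB, 8 of 9 HoxC and 9 of 9 HoxD genes. Only 11 of 39 Hox genes had listed contacts in all 4 H3K27ac libraries (all genes, 55.4%), while 37 of 39 had them in all 4 Smc1 libraries (all genes, 86.7%). The edgeR filter kept 38 of the 39 genes and left out Hoxb13. None of the 38 passed at an adjusted p of 0.05, where 1.41% of all features did; 14 had an unadjusted p under 0.05, where 15.3% of all features did, and DESeq2 called 11 of 39, all lower, where it called 7.89% of all features and 6.58% as lower. The 38 fitted log2 ratios had a median of -1.46, beside -0.11 over all genes tested. This is a description only, since 8 Hox genes were listed in all 4 Smc1 libraries but in at most 1 H3K27ac library, and such genes pass the filter through Smc1. Scaling by library totals alone put the median of all features at 0.16 and turned Hoxa2, Hoxa3, Hoxa5, Hoxa6 and Hoxc13 above 0. The 4 H3K27ac libraries lay wholly below the 4 Smc1 libraries at 11 of the 38 genes (28.9%, against 8.32% of all features) and wholly above at 0 (7.88% of all features). The 11 were Hoxa7, Hoxa9, Hoxa10, Hoxa11, Hoxa13, Hoxb5, Hoxb6, Hoxd3, Hoxd4, Hoxd11 and Hoxd13, the same 11 genes that DESeq2 called. Among them Hoxa13, Hoxb5, Hoxd4 and Hoxd13 were listed in only 1 H3K27ac library each and passed the edgeR filter through Smc1. The 28.9% and its match with the DESeq2 calls are therefore a description as well. Neighbouring windows overlap and share read pairs, so these genes are not independent.

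**Figure D2:**
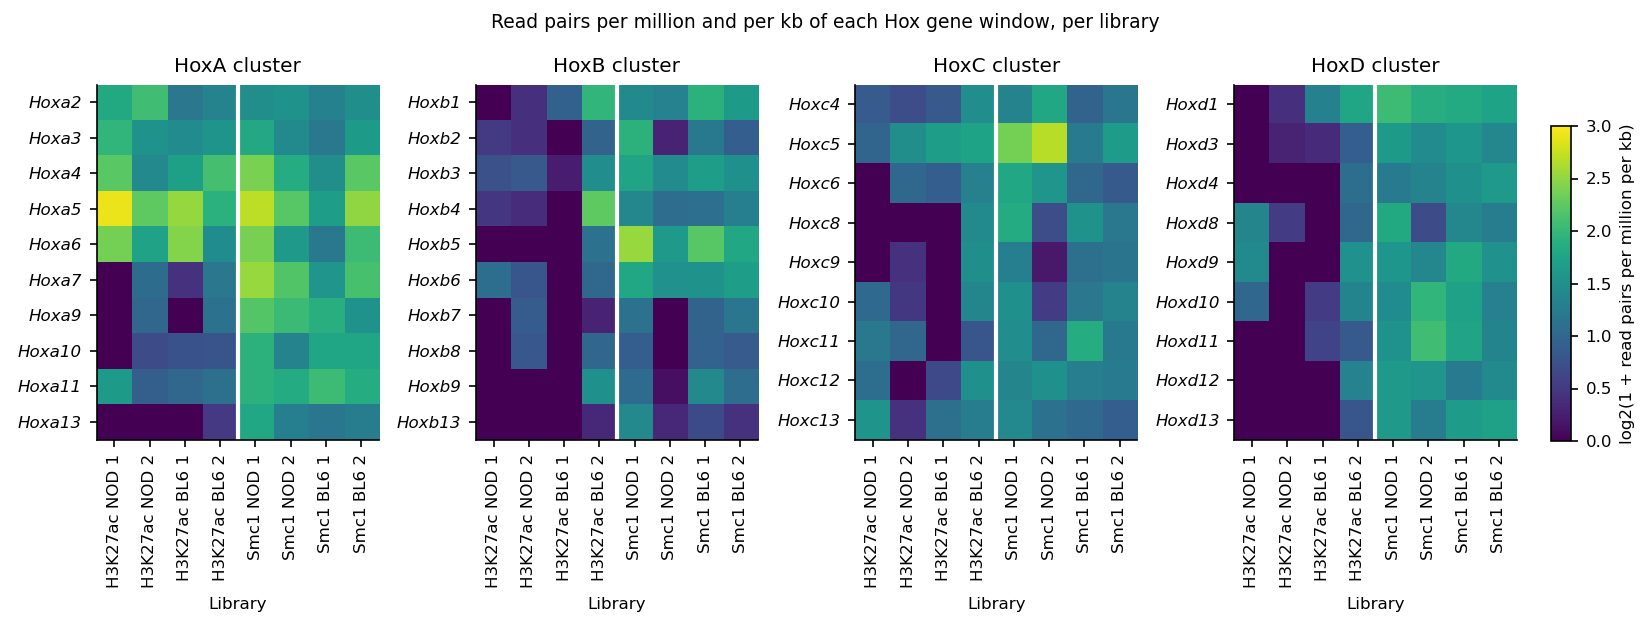
CPM per kb of gene window for 38 Hox genes (rows) in the 8 parental libraries (columns), as log2(1 + value), H3K27ac left of the white line and Smc1 right of it. Hoxa2 to Hoxa6 are listed in every library, while most genes of HoxB, HoxC and HoxD have no listed contact in at least 1 of the first 3 H3K27ac columns.

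Within HoxA the genes fell into 2 runs, a division made after the values were seen and given without a test. Hoxa2 and Hoxa3, which pattern the hindbrain and its neural crest, and Hoxa4, Hoxa5 and Hoxa6, which act further along the trunk, overlapped between the antibodies. The windows of Hoxa2 to Hoxa6 together had 157 and 102 CPM in the NOD and 109 and 108 CPM in the BL6 H3K27ac libraries, against 144 and 102 CPM in the NOD and 78.4 and 123 CPM in the BL6 Smc1 libraries. The sums also overlapped, and their 5 fitted log2 ratios ran from -0.42 (Hoxa4) to -0.03 (Hoxa6). The windows of Hoxa7 to Hoxa13 together had 28.9 and 26.1 CPM in the NOD and 18.1 and 37.4 CPM in the BL6 H3K27ac libraries, against 160 and 119 CPM in the NOD and 119 and 119 CPM in the BL6 Smc1 libraries. The highest H3K27ac library, BL6 library 2, was far below the lowest Smc1 library in this run, and the 5 fitted log2 ratios ran from -3.67 (Hoxa13) to -1.41 (Hoxa11).

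Hoxa9, a transcription factor of blood progenitors and a frequent partner of Meis1 in leukaemia, had 0 and 7 read pairs in the NOD and 0 and 20 in the BL6 H3K27ac libraries. In the Smc1 libraries it had 85 and 66 (NOD) and 73 and 71 (BL6). The fitted log2 ratio was -2.42 ± 0.85 (SE; adjusted p = 0.198 by edgeR). Hoxa10, also known from progenitor cells, had 0 and 6 read pairs in the NOD and 6 and 17 in the BL6 H3K27ac libraries, against 92 and 45 in the NOD and 89 and 124 in the BL6 Smc1 libraries. Its CPM was below that of every Smc1 library in each H3K27ac library, and the fitted log2 ratio was -2.42 ± 0.65 (SE; adjusted p = 0.0933 by edgeR). Hoxa13, which shapes the digits and the hindgut, had listed contacts in 1 H3K27ac library, with 6 read pairs, and 26 to 49 read pairs in each Smc1 library.

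**Figure D3:**
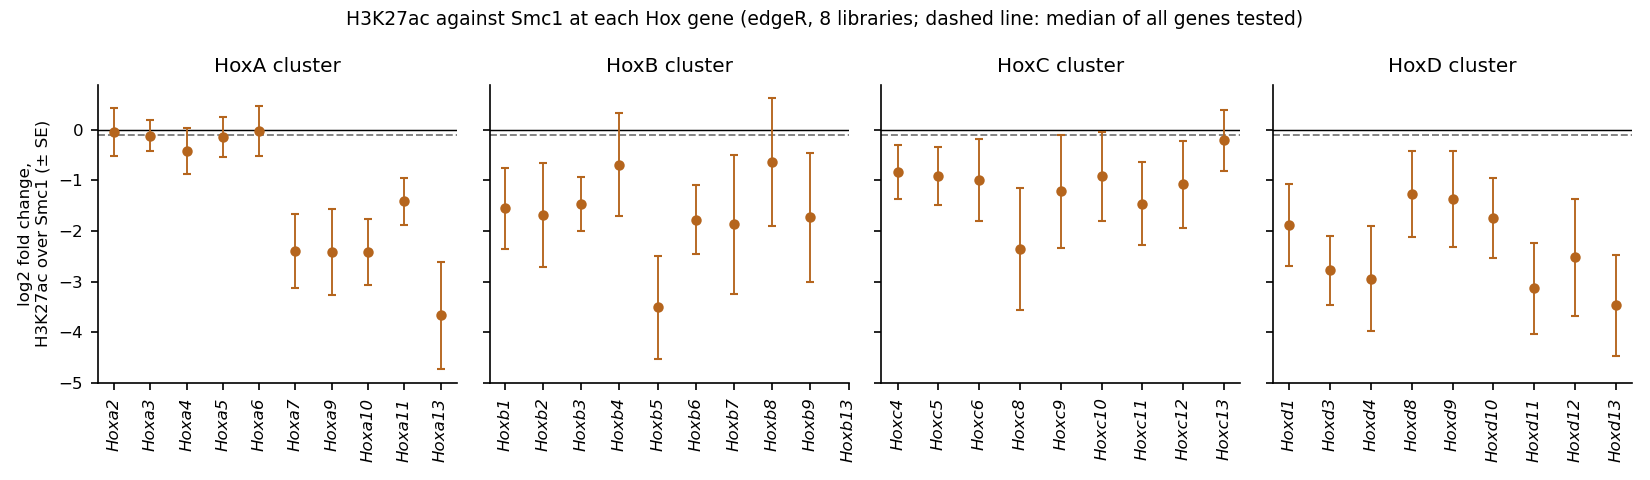
Fitted log2 ratio of read pairs, H3K27ac over Smc1, for 38 Hox genes in paralogue order, with standard errors derived from the F statistics of the edgeR fit over 8 libraries. Hoxb13 was not tested. Hoxa2 to Hoxa6 lie between -0.42 and -0.03, and Hoxa7 to Hoxa13 between -3.67 and -1.41, and all lie below 0 under this scaling, though scaling by library totals alone turns Hoxa2, Hoxa3, Hoxa5, Hoxa6 and Hoxc13 above 0.

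In HoxD the smallest adjusted p belonged to Hoxd3, a gene of the neck vertebrae. It had 0 and 5 read pairs in the NOD and 6 and 48 in the BL6 H3K27ac libraries, against 163 and 119 in the NOD and 175 and 197 in the BL6 Smc1 libraries. Its CPM was lower in every H3K27ac than in any Smc1 library, with a fitted log2 ratio of -2.78 ± 0.68 (SE; adjusted p = 0.0758 by edgeR). Hoxd4, Hoxd12 and Hoxd13, of which Hoxd13 is required for digit formation, had listed contacts only in BL6 library 2 among the H3K27ac libraries, with 23, 23 and 12 read pairs. The fitted log2 ratios of the 9 HoxD genes ran from -3.47 (Hoxd13) to -1.27 (Hoxd8). In HoxB, Hoxb5, a gene of the shoulder level of the trunk, was listed in 1 H3K27ac library with 18 read pairs, and had 101 and 39 in the NOD and 88 and 81 in the BL6 Smc1 libraries (log2 ratio -3.51 ± 1.01, SE; adjusted p = 0.112 by edgeR). Hoxb4, known for expanding blood stem cells when overexpressed, had 2 and 2 read pairs in the NOD and 0 and 61 in the BL6 H3K27ac libraries, against 36 and 22 in the NOD and 29 and 51 in the BL6 Smc1 libraries. For Hoxb4 the H3K27ac libraries lay both above and below all Smc1 libraries, with BL6 library 2 alone above. In HoxC the lowest log2 ratio was at Hoxc8, with listed contacts in 1 H3K27ac library (28 read pairs) and 13 to 59 read pairs in each Smc1 library (-2.35 ± 1.20, SE; adjusted p = 0.391 by edgeR).

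Per kb of window, levels can be compared between genes. With Smc1, 36 of 39 Hox genes lay above the all-gene median of 0.891 CPM per kb, with a Hox median of 1.87, and the exceptions were Hoxb7, Hoxb8 and Hoxb13. With H3K27ac, 14 of 39 lay above the all-gene median of 0.885 CPM per kb, with a Hox median of 0.757. Of those 14, 7 were HoxA genes, led by Hoxa5 at 4.46, Hoxa6 at 3.17 and Hoxa4 at 2.74 CPM per kb. The medians by cluster with H3K27ac were 2.12 for HoxA, 0.450 for HoxB, 0.839 for HoxC and 0.376 for HoxD, against 2.68, 1.32, 1.55 and 1.97 CPM per kb with Smc1. These are descriptions of 39 genes that share anchors.

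The anchors of the interactions merged into 148 regions over the 4 clusters, 36 to 38 in each. Of these, 60 had listed read pairs in all 4 Smc1 libraries, 3 in all 4 H3K27ac libraries and 2 in all 8. The first of the 2 was the region at the Hoxa6 promoter shown above (chr6:52208836-52211388), with 20 and 8 read pairs in the NOD and 15 and 11 in the BL6 H3K27ac libraries, against 41 and 25 in the NOD and 22 and 61 in the BL6 Smc1 libraries. It averaged 27.9 ± 19.4 CPM with H3K27ac and 19.1 ± 6.05 CPM with Smc1 (SD, n = 4 each), a difference smaller than the H3K27ac spread. The second lay inside Hoxb3 (chr11:96329505-96331419), with 9.19 ± 1.01 CPM with H3K27ac and 9.68 ± 4.65 CPM with Smc1 (SD, n = 4 each). In HoxD the region at Hoxd1 (chr2:74764362-74773158) led with both antibodies, at 10.9 ± 8.61 CPM with H3K27ac, where NOD library 1 listed none, and 25.9 ± 8.05 CPM with Smc1. Regions listed with Smc1 only numbered 52, and regions listed with H3K27ac only numbered 7.

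**Figure D4:**
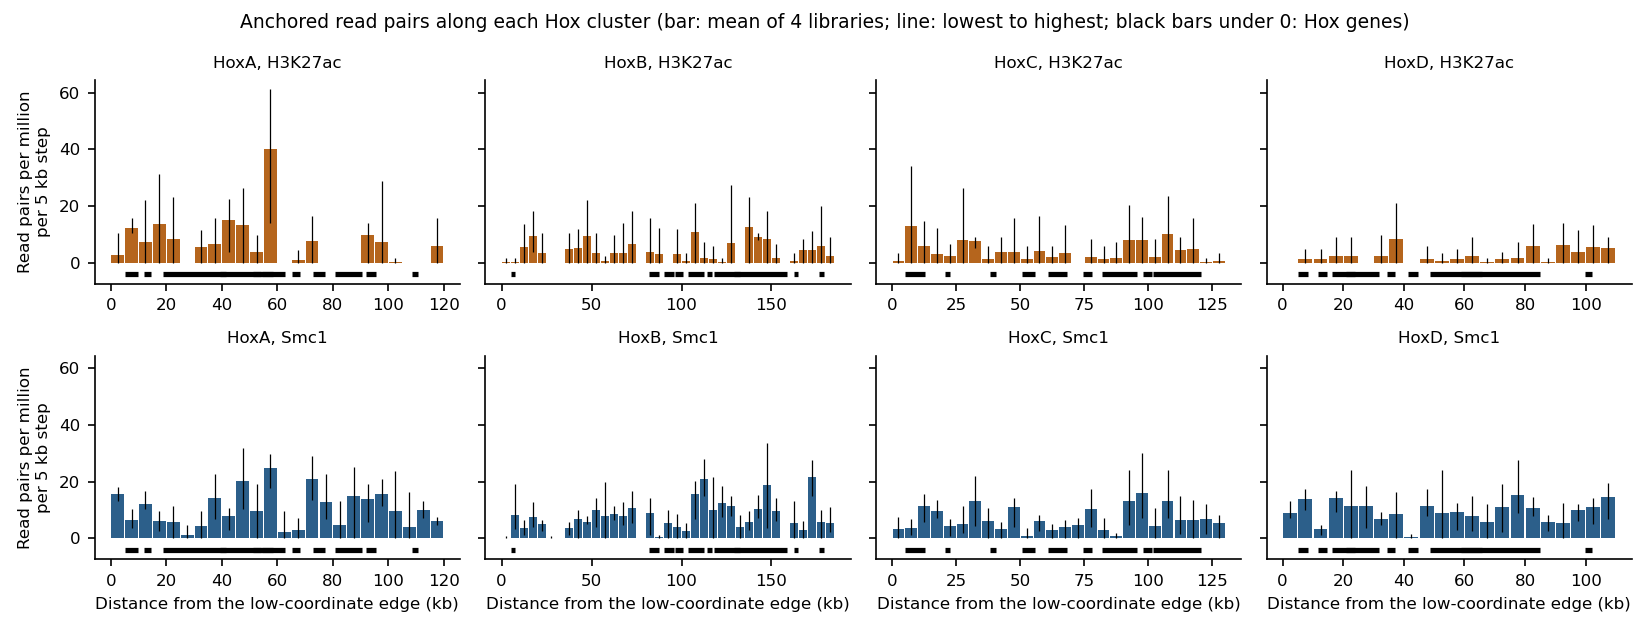
Anchored read pairs in CPM in 5 kb steps along each cluster, H3K27ac above and Smc1 below. The step from 55 to 60 kb of HoxA, next to the Hoxa6 promoter, averages 40.0 with H3K27ac and 24.8 with Smc1, and Smc1 bars are spread over the whole of each cluster.

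Most listed contacts at least 10 kb long left the cluster. Contacts under 10 kb were left out of these shares, and the windows of a cluster together cover 102 to 120 kb. With Smc1 the contacts left out held 102 read pairs at HoxB and 67 at HoxD, beside 39 and 32 counted inside. No share was taken for windows of like size elsewhere. Of the read pairs of HoxA 1.68% with H3K27ac and 3.44% with Smc1 joined points within the cluster, pooled over 4 libraries each. The shares were 3.28% and 2.70% for HoxB, 7.49% and 12.4% for HoxC, and 0% (0 of 167 read pairs, which allows up to 2.18% by an exact 95% interval) and 2.16% for HoxD, H3K27ac first. All 7 inside read pairs of HoxA and all 9 of HoxB with H3K27ac came from BL6 library 2, and without it both shares were 0% (exact 95% intervals up to 1.64% and 5.21%). With Smc1 the HoxC share was 8.75% to 17.8% in the 4 libraries, above every library of the other clusters, whose highest was 6.35% at HoxB. With H3K27ac the HoxC share was 17.9% and 0% in the NOD and 0% and 8.33% in the BL6 libraries, so 2 of 4 listed no inside contact. The exact two-sided permutation test over libraries with at least 20 read pairs passed no threshold for HoxA (0.91% against 3.00%, p = 0.371), HoxB (1.46% against 3.13%, p = 0.486, with 3 H3K27ac libraries) or HoxC (6.55% against 12.5%, p = 0.286). Without H3K27ac NOD library 1 the HoxC mean with H3K27ac was 2.78% (exact permutation p = 0.0286, adjusted 0.0857). For HoxD 1 H3K27ac library had enough read pairs, so no test was made. The inside interaction with the most read pairs was within Hoxc4, 16 read pairs over 12.7 kb in Smc1 NOD library 2. In HoxA, 12 read pairs over 23.4 kb joined the Hoxa3 and Hoxa4 windows to the region at the Hoxa6 promoter in Smc1 BL6 library 2.

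With Smc1 the contacts that left pointed mostly to 1 side in HoxB and HoxD. With that antibody 76.4% of HoxB and 73.9% of HoxD read pairs ran to the side of Hoxb1 and Hoxd1, against 19.5% and 23.3% to the side of Hoxb13 and Hoxd13. With H3K27ac the pooled shares towards Hoxb1 and Hoxd1 were 61.7% (32.1% to the other side) and 77.2% (22.8%). H3K27ac BL6 library 2 held 205 of these 274 HoxB and 134 of these 167 HoxD read pairs. By H3K27ac library the shares ran from 47.8% to 77.8% for HoxB and from 50% to 100% for HoxD, on as few as 9 and 7 read pairs. For HoxA, 57.7% ran to the side of Skap2 with H3K27ac and 56.9% with Smc1, and for HoxC 64.8% ran to the side of Hoxc13 with H3K27ac (27.7% to the other side) and 48.6% with Smc1 (39.0%). In every one of the 4 parental Smc1 libraries the share to the Hoxb1 side was between 71.3% and 80.5%, and the share to the Hoxd1 side between 71.9% and 76.0%. The F1 library was below both ranges. On the BL6 and NOD genomes it had 69.6% and 68.2% to the Hoxb1 side and 59.8% and 59.3% to the Hoxd1 side.

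HoxD concentrated its Smc1 contacts in the step of 300 to 400 kb beyond Hoxd1. That step had 0 and 6.03 CPM in the NOD and 9.07 and 17.4 CPM in the BL6 H3K27ac libraries, against 41.5 and 49.2 CPM in the NOD and 36.3 and 30.1 CPM in the BL6 Smc1 libraries. It was the highest step of HoxD with both antibodies and was picked for its height. The libraries of the 2 antibodies did not overlap there, which is a description and not a test. The strongest single pair of 10 kb bins of HoxD lay there, between Hoxd3 (chr2:74710001-74720000) and 2600014E21Rik (chr2:75140001-75150000), 430 kb away. It had 0 and 3 read pairs in the NOD and 0 and 0 in the BL6 H3K27ac libraries, against 6 and 5 in the NOD and 9 and 15 in the BL6 Smc1 libraries. The F1 library listed 0 for this pair on either genome. Farther out, Pde11a, a cyclic nucleotide phosphodiesterase 1216 kb from the cluster, had 0 and 2 read pairs with HoxD in the NOD and 4 and 24 in the BL6 H3K27ac libraries. In the parental Smc1 libraries it had 22 and 44 (NOD) and 40 and 55 (BL6), and in the F1 library 0 on either genome. Here and below, partner levels are sums over gene windows and are not scaled to window length.

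The partner of HoxB with the highest summed level was its neighbour Skap1, an adaptor protein of T cell receptor signalling. The gene begins 91.3 kb beyond the HoxB window on the Hoxb1 side. The pair had 6 and 10 read pairs in the NOD and 0 and 18 in the BL6 H3K27ac libraries, against 158 and 88 in the NOD and 191 and 162 in the BL6 Smc1 libraries. That amounts to 12.7 ± 8.8 CPM with H3K27ac and 79.2 ± 21.6 CPM with Smc1 (SD, n = 4 each), and the libraries did not overlap. Skap1 was picked as the highest partner, so the lack of overlap is a description only. All HoxB read pairs averaged 81.4 CPM with H3K27ac and 187 CPM with Smc1, so Skap1 took a minority with both antibodies. The strongest Smc1 bin pair joined Hoxb3 to Skap1 over 200 kb, with a mean of 3.93 CPM in 3 of 4 libraries and no listed read pair with H3K27ac. After Skap1 the Smc1 partners of HoxB were Copz2 (6.3 ± 4.2 CPM), Snx11 (5.8 ± 2.7 CPM), the T-helper regulator Tbx21 (3.6 ± 2.5 CPM) and Nfe2l1 (3.1 ± 3.4 CPM). The Skap1 window was 305 kb long, against 21.3 kb for Copz2 and 20.2 kb for Snx11, so this order is not one per kb. With H3K27ac no other partner of HoxB was listed in more than 2 of 4 libraries among the 5 highest, which were Skap1, Osbpl7, Calcoco2, Copz2 and Mrpl10.

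HoxA reached in both directions. Jazf1, a zinc finger cofactor 502 kb beyond Hoxa13, had the highest summed level among its partners with both antibodies. The pair had 8 and 9 read pairs in the NOD and 6 and 44 in the BL6 H3K27ac libraries, against 69 and 90 in the NOD and 78 and 87 in the BL6 Smc1 libraries. Its means were 22.3 ± 10.0 CPM with H3K27ac and 44.1 ± 11.7 CPM with Smc1 (SD, n = 4 each). On the other side Skap2, a relative of Skap1, had 12.6 ± 14.8 CPM with H3K27ac and 17.7 ± 7.5 CPM with Smc1, where the spread exceeds the difference. Creb5 (11.5 ± 13.8 and 13.8 ± 3.2 CPM) and Snx10 (9.2 ± 12.4 and 11.6 ± 6.0 CPM, H3K27ac first) followed in both lists. Their windows differed in length, at 311 kb for Jazf1, 163 kb for Skap2, 423 kb for Creb5 and 76.8 kb for Snx10. The order of the sums is therefore not an order per kb. The step 500 to 600 kb out on the Skap2 side differed by less than the spread, at 17.1 ± 5.2 CPM with H3K27ac and 17.2 ± 3.5 CPM with Smc1. The step 900 to 1000 kb out on that side had 5.70 ± 1.58 CPM with H3K27ac and 22.7 ± 7.2 CPM with Smc1 (SD, n = 4 each), with no overlap of libraries. Both steps were picked for their height.

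The leading partner of HoxC had a lower summed level than those of the other clusters, but also a much shorter window. That window was 25.65 kb long, against 305 kb for Skap1, 311 kb for Jazf1 and 363 kb for Pde11a. The sums therefore do not rank the partners per kb. Smug1, a DNA repair glycosylase 111 kb beyond Hoxc4, led both lists, with 0 and 3 read pairs in the NOD and 0 and 22 in the BL6 H3K27ac libraries, against 15 and 9 in the NOD and 22 and 7 in the BL6 Smc1 libraries. The next partners with H3K27ac were the keratin genes Krt1, Krt86, Krt78 and Krt80, at 3.3 to 4.6 CPM and 919.5 to 1546 kb away. Krt1 was listed in 2 of 4 H3K27ac libraries and the others in 3, with at most 7 read pairs in a library. With Smc1 they were Itga5, Zfp385a, Nckap1l and Pde1b, at 3.5 to 4.3 CPM and 272 to 461 kb away. The lists do not separate the antibodies. Krt78 had 3.05 CPM with Smc1 beside 3.52 CPM with H3K27ac, and Nckap1l had 2.86 CPM with H3K27ac. Itga5 alone among these partners had no listed read pair with H3K27ac, and every keratin gene named had some with Smc1. The median span of a HoxC read pair was 850.2 ± 331 kb with H3K27ac and 422 ± 160 kb with Smc1 (SD over n = 4 libraries each). The libraries overlapped, at 548 to 1172 kb with H3K27ac and 237 to 598 kb with Smc1. The H3K27ac library with the most HoxC read pairs, BL6 library 2 with 180, had the 548 kb, and the others had 28, 28 and 31 read pairs.

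**Figure D5:**
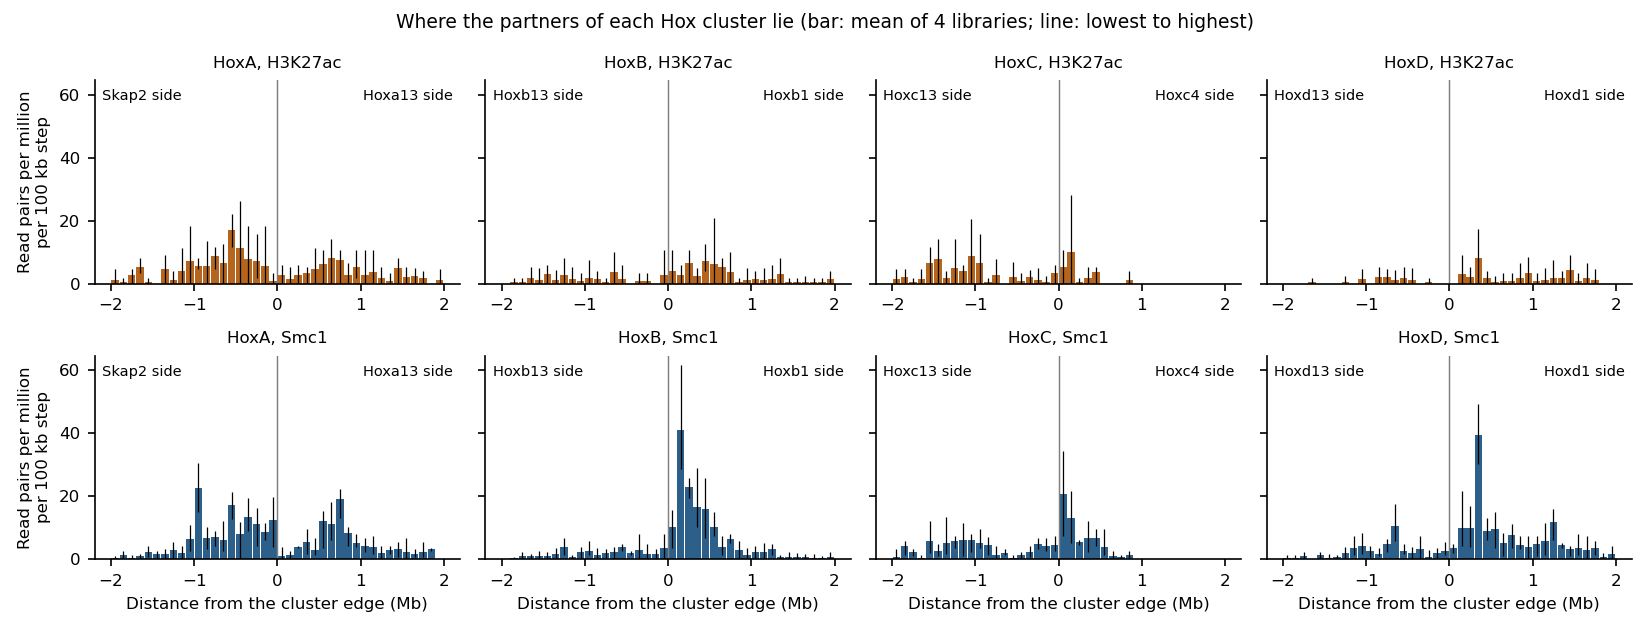
Read pairs in CPM in 100 kb steps away from each cluster edge, H3K27ac above and Smc1 below, with the gene at each edge named. With Smc1 HoxB peaks 100 to 200 kb beyond Hoxb1 at 41.1 and HoxD 300 to 400 kb beyond Hoxd1 at 39.3, where H3K27ac has 2.55 and 8.14. Both steps were picked for their height with Smc1.

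The comparison of NOD with BL6 asks whether the clusters differ between a strain that develops autoimmune diabetes and a standard strain. With Smc1, 0 of 39 Hox genes and 0 of 4 clusters passed (edgeR, adjusted p under 0.05), and DESeq2 also called 0 of 39 (0.175% of all features). Each strain is 1 biological replicate here. Of all 37763 features 0.13% passed, 0.00794% as lower in NOD. At an unadjusted p under 0.05 there were 2 of 39 genes, Hoxc5 and Hoxc6, where 3.64% of all features had one. Hoxc5, a gene of the lower neck and upper trunk, had 93 and 108 read pairs in NOD and 34 and 75 in BL6 libraries, or 55.9 and 72.7 CPM in NOD and 17.9 and 28.6 CPM in BL6. The fitted log2 ratio was 1.5 ± 0.43 for Hoxc5 and 1.32 ± 0.41 for its neighbour Hoxc6 (SE; adjusted p by edgeR = 1.00 for both). The HoxC cluster had 183 and 162 CPM in NOD and 127 and 116 CPM in BL6 libraries, with no overlap, and a fitted log2 ratio of 0.54 ± 0.25 (SE; adjusted p = 1.00 by edgeR). Libraries did not overlap at 10 of 39 Hox genes with NOD higher (25.6%, against 15.5% of all features) and at 4 with NOD lower (10.3%, against 17.9%). Without Smc1 NOD library 1 the count of calls was 3, Hoxc5 higher and Hoxb7 and Hoxb8 lower in NOD, the last 2 with no listed read pair in the remaining NOD library. In that fit 2.15% of all 40184 features were called, and the lone NOD library was assumed to vary like the BL6 libraries.

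With H3K27ac, 11 of the 39 genes passed the filter and 0 were called (edgeR; 0% of all 23709 features, and 0.785% at an unadjusted p under 0.05). DESeq2 gave an adjusted p for 8 of the 39 and called 0 of those (0.094% of all features). The HoxD cluster had 21.0 and 14.1 CPM in NOD and 40.8 and 111 CPM in BL6 libraries. These rest on 8 and 7 read pairs in NOD and 18 and 134 in BL6, with the 134 from the deepest H3K27ac library. The fitted log2 ratio was -2.18 ± 0.89 (SE, with adjusted p = 1.00 by edgeR). HoxA was higher in NOD on average, at 198 ± 64.6 CPM against 141 ± 26.8 CPM in BL6 (SD, n = 2 each), with overlapping libraries. The test whether the strain difference itself differed between antibodies called 0 of 38 Hox genes and 0 of 4 clusters (edgeR; 0% of all 37645 features, and 2.3% at an unadjusted p under 0.05). For the HoxD cluster the interaction on the log2 scale was -2.39 ± 0.78 (SE; adjusted p = 1.00 by edgeR).

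The F1 library, with no replicate, gives levels only. HoxA had 254 CPM on the NOD and 210 CPM on the BL6 genome in the F1, within the 201 to 283 CPM of the parental Smc1 libraries. HoxC, at 119 and 136 CPM on the NOD and BL6 genomes, was also within the parental range of 116 to 183 CPM. HoxB, at 111 and 103 CPM, and HoxD, at 136 and 153 CPM, were below all 4 parental libraries, whose ranges were 127 to 230.0 and 169 to 217 CPM. The F1 library had fewer used read pairs than any parental Smc1 library, and the part of depth in this was not tested. Both F1 values were below all 4 parental values at 14 of 39 Hox genes (20.6% of all genes with a listed interaction) and above at 3 (19.6%). Both values come from the reads of 1 library, so they are not replicates.

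Genes around the clusters and genes that act with Hox proteins were compared in the same fit of H3K27ac against Smc1. None of 9 tested genes flanking HoxA passed, with a median log2 ratio of 0.14, and the summed level of all 10 listed was 2153 to 3572 CPM with H3K27ac against 1905 to 2182 CPM with Smc1. None of 13 flanking HoxB (median -0.34), 14 flanking HoxC (median -0.47) or 13 flanking HoxD (median -0.64) passed, beside 1.41% of all features. The HoxD flank held Evx2, a homeobox gene next to Hoxd13, at -2.90 (adjusted p = 0.220), and Mtx2, a mitochondrial import protein beyond Hoxd1, at -1.74 (adjusted p = 0.0826). Of 9 Hox cofactors 1 fell, Meis2, a homeodomain partner of Hox proteins, with a log2 ratio of -1.59 (adjusted p = 0.0437 by edgeR). Its relative Meis1 was at -1.55 (adjusted p = 0.141), and the cofactor median was -0.08. Of 21 tested Polycomb and trithorax genes 1 rose, Ring1, and the median was 0.11. Ring1 was listed in all 4 H3K27ac and no Smc1 library, so it entered the fit through H3K27ac alone and its rise is a description only. Neither Meis2 nor Ring1 was called with the Smc1 technical replicates summed. The median log2 ratio of 12 double-positive thymocyte markers was 1.02. None of 8 progenitor and myeloid (median 0.06), 5 B cell (0.21) or 6 thymic epithelial markers (0.18) passed.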

How the data were processed

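HiChIP interaction tables of 9 libraries (10 tables) were used. The authors deposited raw counts, of read pairs for an interaction and of reads for an anchor. They also deposited the p-value and q-value of each interaction. HiC-Pro, Juicer 1.7.6 and MACS are named without roles, per the submitters' processing notes, and the build is GRCm38. Tables were checked to list only interactions within a chromosome, from 2 read pairs, up to a q-value of 0.05 and a span of about 2 Mb. A pair that was not listed counted as 0 in the sums.

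Read pairs were summed per gene (49554 genes, RefSeq GRCm38.p6) and per Hox cluster, each interaction once, and divided by the used read pairs of the library. Tests used edgeR 4.0.16 in R 4.3.3 on the counts as deposited (TMM, default filter, robust quasi-likelihood, Benjamini-Hochberg over all features, threshold 0.05), with DESeq2 1.42.0 as an alternative. The SE of a fitted log2 ratio was derived as its absolute value divided by the square root of its F statistic. The fits were tested on simulated counts. Single cluster values used exact permutation tests in SciPy 1.17.1 and exact Poisson or binomial 95% intervals. Named were all Hox genes, the 5 highest bin pairs and up to 5 partners per cluster and antibody, and the genes of the fixed lists; anything else named was chosen after its values were seen. Members, lists and comparisons were chosen with earlier results of these data known. Alternatives were scaling, filter, window, distance, read-pair and q minimums, replicate block, strain subsets and leaving out each library; a fit on protein-coding genes alone and the summing of Smc1 technical replicates were added after seeing the data. Values of 1 Hox gene and of 1 marker gene are not reported here one by one. No genome sequence was used, so anchors carry coordinates without sequence.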

Additional observations from a re-analysis of the deposited data

Results flagged for a closer look

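Interactions with anchor midpoints under 10 kb apart were outside every comparison above, and read pairs in them were listed at all 4 clusters, above the 3 counts that a count of 0 allows. HoxA had 48 such read pairs, all with Smc1 in BL6, in 2 of 8 libraries. HoxB had 111, of which 9 were with H3K27ac and 102 with Smc1, in 5 of 8 libraries. HoxC had 80, all with Smc1, 37 in NOD and 43 in BL6, in 4 of 8 libraries. HoxD had 67, all with Smc1, 9 in NOD and 58 in BL6, in 3 of 8 libraries. The part of depth in these counts was not tested.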

How the results depend on the processing

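Of 1101 alternative values for 56 log2 ratios, 1031 kept their direction and side of the threshold, 15 lost and 17 gained a call, and 38 changed sign. The cause of the changes below was not tested. For H3K27ac against Smc1, 1 Hox feature was called, the HoxD cluster. The count was 0 with library totals alone, with gene ends in place of bodies, with at least 3 read pairs, with BL6 or NOD libraries alone, and with the Smc1 technical replicates summed. It was 2 without the flank, 12 with DESeq2 and 0 to 4 when 1 library was left out. With q up to 0.01 it was 1, Hoxa9 in place of the HoxD cluster. With the replicate block it was 0; numbers are shared by 2 pairs an antibody only, with a correlation of deviations of 0.564 for H3K27ac and 0.159 for Smc1, so they were not taken to pair libraries. For NOD against BL6 with Smc1, 0 to 3 were called when 1 library was left out. Over all features, H3K27ac against Smc1 gave 467 lower and 38 higher calls, against 1 with gene ends and 2906 lower and 577 higher with DESeq2.

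With at least 3 read pairs the differences in CPM, H3K27ac minus Smc1, were -151 for HoxA, -165 for HoxB and -154 for HoxD (exact permutation test, adjusted p = 0.0381 each), and -69.9 for HoxC (adjusted p = 0.114). The F1 then had 175 and 146 CPM at HoxA, 140.4 and 134 at HoxB, 157 and 166 at HoxC, and 75.6 and 71.4 at HoxD, NOD genome first. With q up to 0.01, HoxC reversed to 20.9 CPM and 12.2 percentage points of inside share.

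These log2 ratios of H3K27ac over Smc1 reversed. With library totals alone they were 0.22 for Hoxa2, 0.15 for Hoxa3, 0.13 for Hoxa5, 0.24 for Hoxa6 and 0.053 for Hoxc13. Without the flank they were 1.95 for Hoxa11 and 0.25 for Hoxc13. With gene ends Hoxa3 was 0.11, with 20 kb Hoxa6 was 0.013, and with at least 3 read pairs Hoxc13 was 0.051. With q up to 0.01 they were 0.15 for Hoxc5 and 1.45 for Hoxc13. With BL6 libraries alone they were 0.15 for Hoxa6, 0.40 for Hoxb4, 0.13 for Hoxc5, 0.14 for Hoxc6 and 0.18 for Hoxc13. With NOD libraries alone Hoxa2 was 0.33. Leaving out 1 library gave -0.21 to 0.097 for Hoxa2, -0.29 to 0.056 for Hoxa3, -0.36 to 0.13 for Hoxa5, -0.37 to 0.24 for Hoxa6, -1.47 to 0.30 for Hoxb8 and -0.55 to 0.18 for Hoxc13.

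For NOD over BL6, the HoxA cluster with H3K27ac was -0.061 without the flank and -0.17 with at least 3 read pairs, and the HoxC cluster 0.27 with q up to 0.01. Leaving out 1 library gave -0.52 to 0.20 for the HoxB cluster with Smc1 and -1.40 to 1.72 with H3K27ac. The interaction of the HoxA cluster was -0.18 without the flank, -0.26 with at least 3 read pairs and -0.15 to 0.49 without 1 library, and that of the HoxB cluster -1.33 to 1.82 without 1 library. No Hox gene could be tested between strains with H3K27ac at 3 read pairs, and the interaction was not run with DESeq2 or a block.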
